A study of Homo sapiens with 9 samples.

Results

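The comparison described here set HCT116 cells that overexpressed the long noncoding RNA CRLM1 (CRLM1-OE) against HCT116 cells that carried the free plasmid (Ctrl). HCT116 is an established human colorectal cancer cell line. The members were chosen by label, as the 3 CRLM1-OE and the 3 Ctrl samples among the 9 samples of the series, with every gene kept. A further 3 samples carried the antisense sequence of CRLM1 (Anti) and are used below as a second plasmid control. Of the 31558 genes in the deposited count table, 29846 had at least 1 count in the 6 samples and were tested. The study asked which genes respond to CRLM1, a transcript it followed for its link to liver metastasis of colorectal cancer.

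By the study's methods, CRLM1 was expressed from a lentiviral pTSB vector with GFP and a puromycin marker, while its results describe the sequenced cells as transfected, so that whether the copy was integrated is not given here. The labels give the plasmid and the replicate number and no further treatment, time or batch. Whether the biological replicates of a group came from separately made cell populations is not given in the sources used here. The p-values rest on the spread between these samples only, taken from the trend over genes rather than from each gene alone. A difference between such populations cannot be told apart from one of the inserted RNA. Long noncoding RNAs are transcripts that are not translated and that can bind chromatin or proteins, and the protein followed with CRLM1 in this study is the RNA-binding protein hnRNPK. Several stress and nutrient pathways recur below. Sterol regulatory element-binding proteins (SREBPs) switch on cholesterol and fatty acid enzymes when membrane sterols are low. Heat-shock factor 1 switches on cytosolic chaperones, the unfolded protein response raises chaperones of the endoplasmic reticulum (ER), and ATF4 raises amino acid supply.

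CRLM1 is LINC01767 and is listed in the deposited tables as RP4-710M16.2 on chromosome 1. The gene-specific parts of the cloning primers are shown because they mark what was inserted, and the capitals are the whole primer that matches the transcript. The forward primer lies at chr1:56414963-56414983 of GRCh38 on the forward strand, in exon 1 of LINC01767-201. The site of the reverse primer lies at chr1:56415940-56415966, read on the reverse strand, in exon 4 of the same transcript.
Forward: ACCAGGTACAAAATCCCCTGG
Reverse: TGGCTTGAACAATAAAAAGAGTTTATT

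CRLM1 was high in every CRLM1-OE sample and without a count in Ctrl. It measured 1482.54, 1582.04 and 1500.31 FPKM (fragments scaled for exon length and mapped fragments) in the 3 CRLM1-OE samples, and 0 counts in every Ctrl sample. The Anti samples were listed at 78.54, 76.63 and 70.91 FPKM. In CRLM1-OE it ranked 41 of 31268 genes by mean FPKM and took 0.0948% of all counts. The CRLM1-OE level was 950 ± 30.7 CPM (counts scaled to 1e+06 per library; SD, n = 3), at least 11066-fold higher than 0.0858 CPM, the level of 3 counts in the Ctrl library with the highest such floor. Use of strand in counting is not given in the sources used here, and without strand the reads of CRLM1 and of its antisense sequence in Anti cannot be told apart.

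The thresholds of the study were used, so a called gene differed 2-fold or more and had a p of 0.05 or less in the quasi-likelihood test of edgeR after Benjamini-Hochberg adjustment. By this rule 745 genes were up-regulated, which is 2.50% of those tested, and 273 were down-regulated, which is 0.915%. Called genes of both directions came to 1018, or 3.41%, and 73.2% of them were up-regulated. Most changes were smaller than 2-fold. The adjusted p alone was passed by 4462 up-regulated genes (15.0%) and 5016 down-regulated genes (16.8%), and of these 2361 and 3704 had an absolute log2 fold change under 0.5. Below, "rose" and "fell" are used for genes that passed the adjusted p, and "called" for those that also reached 2-fold. Counts given for a list below are to be read beside these shares of all genes.

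The direction of small changes depended on the scale. With TMM factors the median log2 fold change of the 11716 genes averaging 100 counts or more was -0.045, and with total counts alone it was 0.096, a shift of 0.14. Under total counts 85.5% of called genes were up-regulated in place of 73.2%, and 69.3% of the genes passing the adjusted p rose in place of 47.1%. Fold changes below are on the TMM scale. FPKM values are scaled to the mapped fragments of each library and so sit closer to the total-count scale.

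The 6 libraries held 33302292 to 44514692 counts, and 3 counts corresponded to 0.0674 to 0.0901 CPM, a floor that covers counting error only. Of the called genes, 274 (26.9%) had a mean count under 10, and 70 had 0 counts in one whole group, so that their fold changes are poorly fixed. Among the 11716 genes averaging 100 counts or more, 169 genes were called up and 75 down, while 3420 rose and 4542 fell. Lists made mostly of such genes are to be read beside these counts as well. The share called was highest, at 11.8%, for genes with a mean count of 10 to 100, and it fell to 0.595% above 10000, although 86.1% of those genes passed the adjusted p. Across 11666 genes the log2 fold change rose with the GC content of the transcript (Spearman 0.24, a description over genes, which do not act as separate replicates). The medians with this trend removed are given where they matter.

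**Figure D1:**
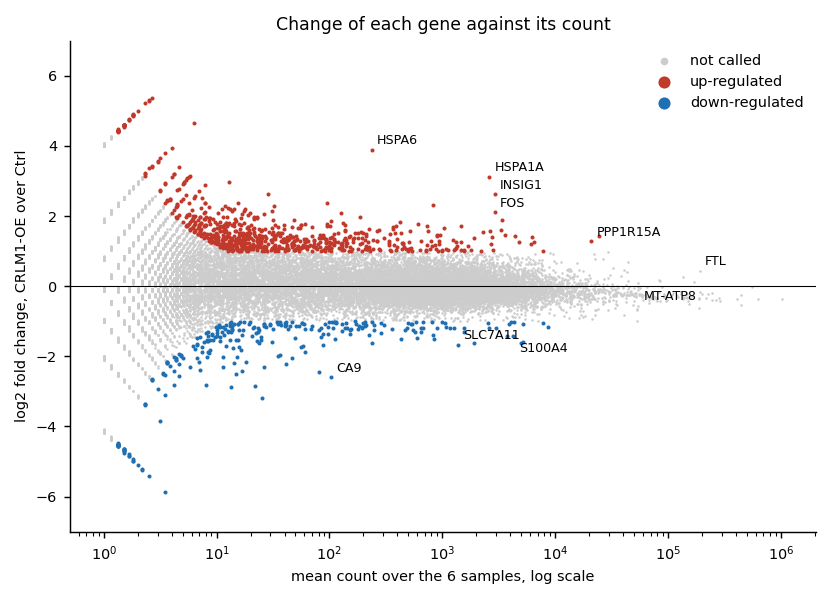
Log2 fold change of CRLM1-OE over Ctrl (vertical axis) against the mean count over the 6 samples (horizontal log axis), 1 point per gene, with CRLM1 and genes averaging under 1 count left out and the vertical axis cut at 7 either way. Red and blue points are the genes called up and down, and the spread narrows as the count grows.

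The largest changes among well-measured genes were mixed. The upper side held heat-shock and immediate early genes and the sterol regulator INSIG1, beside genes of none of these lists. The lower side held amino acid genes, signal recognition particle RNAs and LUCAT1, the interferon-stimulated OASL and the hypoxia target CA9, beside others. The leading genes are the 12 up and 12 down with the largest fold change among called genes averaging 100 counts or more, with 1 FPKM or more in the higher group. HSPA6, an inducible cytosolic HSP70, measured 3.87, 4.5 and 4.72 FPKM in CRLM1-OE against 0.24, 0.26 and 0.32 FPKM in Ctrl. All 3 CRLM1-OE samples lay far above all Ctrl samples, with a fold change of 14.9 (log2 3.90 ± 0.14 SE, adjusted p = 2.8e-166). VGF, a secreted neuropeptide precursor, measured 46.31, 45.83 and 45.16 FPKM against 11.67, 11.27 and 11.36 FPKM. The samples of each group were nearly equal, and it rose 3.7-fold (log2 1.89 ± 0.035 SE, adjusted p = 1e-300, the smallest value written).

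On the lower side, CA9, the membrane carbonic anhydrase induced by hypoxia, had the smallest fold change. It measured 0.61, 0.26 and 0.44 FPKM in CRLM1-OE against 2.26, 2.92 and 2.36 FPKM in Ctrl. The groups did not overlap, although the CRLM1-OE samples differed among themselves more than 2-fold, and the log2 fold change was -2.60 ± 0.17 SE (adjusted p = 7.2e-51). S100A4, a calcium-binding protein known for its link to metastasis, was the most abundant protein-coding gene of the lower side, at 69.67, 66.28 and 69.55 FPKM in CRLM1-OE against 166.39, 163.87 and 177.74 FPKM in Ctrl. The drop was uniform over samples, with a log2 fold change of -1.42 ± 0.031 SE (adjusted p = 1e-300).

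Other leading genes that rose were ATG9B (log2 2.10), the noncoding RP11-7K24.3 (1.98), FGFBP1, a carrier that frees fibroblast growth factors from the matrix (1.85), LIPG, endothelial lipase (1.84), and AIM1L (1.76). Others that fell were the zinc finger gene ZNF189 (-1.5), the glutamate transporter SLC1A3 (-1.47) and the neutral amino acid transporter SLC38A1 (-1.43). All 24 leading genes also differed from Anti in the same direction by the adjusted p, 12 of 12 up and 12 of 12 down. The upper 12 include CRLM1, the inserted transcript itself. The lower 12 include RN7SL1, RN7SL2 and Metazoa_SRP, which are near-copies of each other and not separate genes in this count. Across all genes against Anti, 17.1% rose and 18.5% fell by that rule. The comparisons with Ctrl and with Anti share the CRLM1-OE samples and are not independent.

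**Figure D2:**
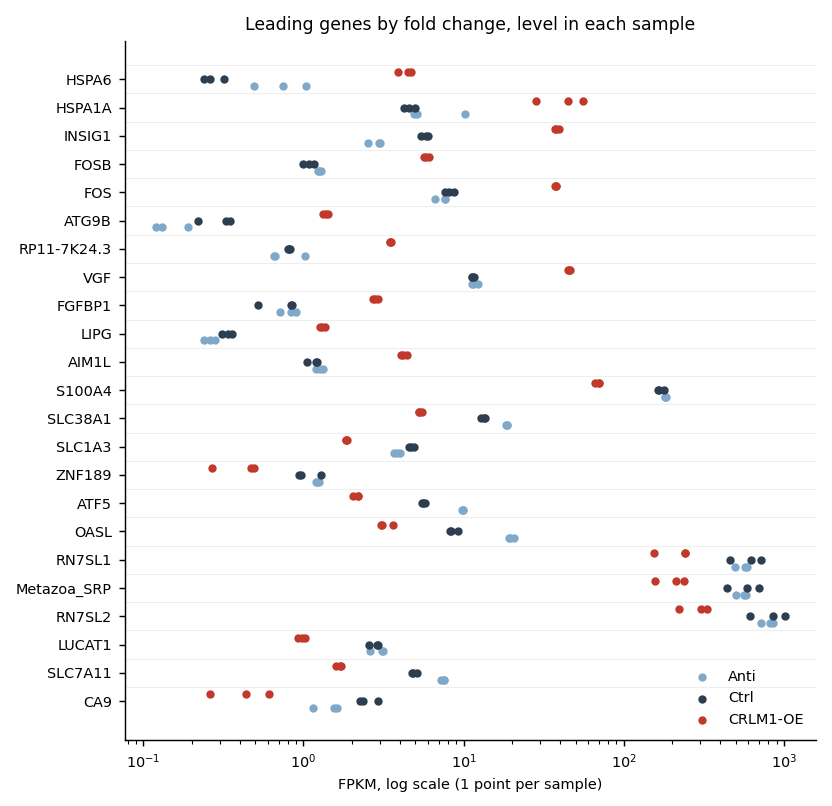
FPKM of the leading genes other than CRLM1 (horizontal log axis), 1 point per sample in CRLM1-OE, Ctrl and Anti. Each CRLM1-OE trio sits on one side of both control trios, and for OASL, ATF5 and SLC7A11 the Anti samples lie above Ctrl.

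RNA of cholesterol synthesis enzymes rose along almost the whole pathway. Of 21 sterol synthesis enzymes, 20 rose and 1 fell, 7 were called up where 2.50% of all genes were, and the median log2 fold change was 0.71 against 0.02 over all genes tested. In bulk RNA a change in the share of cells that express a gene and a change in its RNA per cell cannot be told apart. IDI1, which interconverts the isoprene building blocks, led the list at 23.14, 22.63 and 22.63 FPKM in CRLM1-OE against 6.87, 6.2 and 6.24 FPKM in Ctrl. The 2 groups were each narrow and far apart (log2 1.71 ± 0.048 SE, adjusted p = 3.2e-271). HMGCS1, which makes the precursor of mevalonate, rose by log2 1.57, the sterol oxidase MSMO1 by 1.46, squalene epoxidase SQLE by 1.40, ACAT2 by 1.30, squalene synthase FDFT1 by 1.27 and lanosterol synthase LSS by 1.01.

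The late enzyme DHCR7 rose by log2 0.74, and PMVK and NSDHL by only 0.17 and 0.14. GGPS1, which diverts isoprenoids to protein prenylation rather than to sterols, was the member that fell (log2 -0.32 ± 0.06 SE, adjusted p = 6.9e-07). In each sample the median of the list lay between 0.684 and 0.719 log2 units above the Ctrl mean in CRLM1-OE and between -0.266 and -0.156 in Anti. Against Anti the median log2 fold change was 0.98, and 20 of the 21 enzymes rose.

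Regulators of the pathway moved with it. INSIG1, the ER anchor that holds SREBP back when sterols are high and is itself an SREBP target, measured 37.27, 39.33 and 37.53 FPKM in CRLM1-OE against 5.39, 5.99 and 5.84 FPKM in Ctrl. No Ctrl or Anti sample came near the CRLM1-OE range, and the fold change was 6.14 (log2 2.62 ± 0.039 SE, adjusted p = 1e-300). The sterol carrier STARD4 rose 2.73-fold.

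SREBF2 and SREBF1, which encode the SREBPs, rose by log2 0.65 and 0.54 without being called, while SCAP (-0.05) and INSIG2 (-0.06) did not pass the test. MBTPS1 and MBTPS2, the proteases that cut SREBP free in the Golgi, fell by 0.25 and 0.47 on the log2 scale. Of the 15 genes in this list 8 rose and 3 fell, with a median of 0.54. Fatty acid enzymes rose more weakly: 12 of 19 rose, 3 fell and none was called, with a median of 0.44. The desaturase SCD measured 172.96, 174.98 and 172.4 FPKM against 82.67, 82.41 and 81.9 FPKM, just under 2-fold (fold change 1.95), and the synthase FASN rose 1.72-fold. FADS1, ME1 and SCD5 were the members that fell. The liver X receptor genes and sterol exporters, which answer high sterols, had a median of 0.05 over 9 genes, with 3 rising and 2 falling; NR1H2 fell by 0.53 on the log2 scale and RXRB rose by 0.26.

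**Figure D3:**
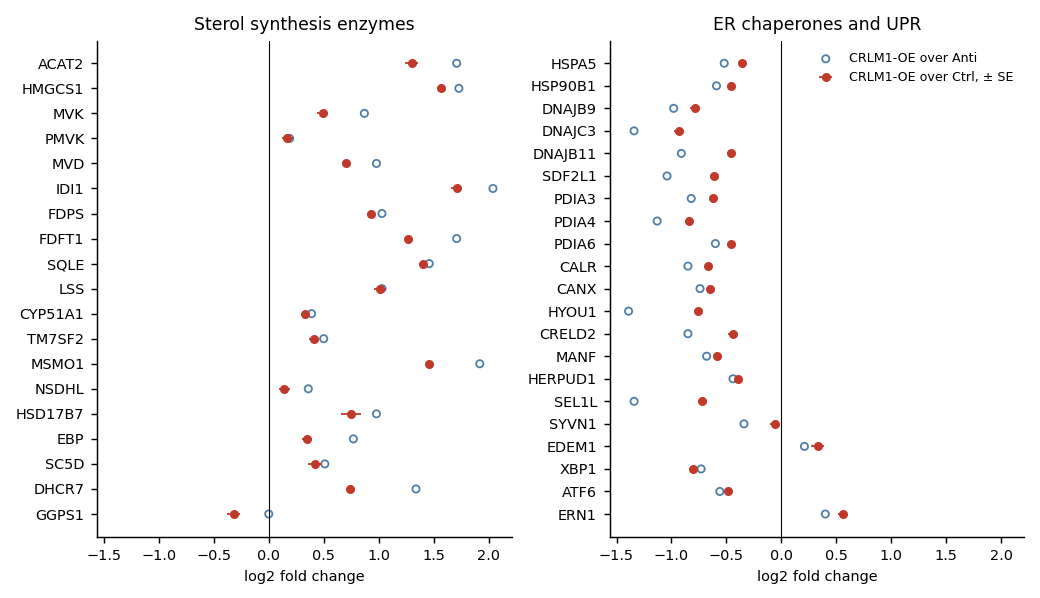
Log2 fold change of CRLM1-OE over Ctrl (filled points, bars ± SE) and over Anti (open points) for 19 of the 21 sterol synthesis enzymes and for the ER chaperones and unfolded protein response genes. The sterol enzymes lie to the right of 0 apart from GGPS1, and the ER genes lie to the left of 0 apart from EDEM1 and ERN1.

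Heat-shock genes rose unevenly, with the inducible HSP70 genes far ahead of the others. HSPA1A measured 55.51, 28.31 and 45.11 FPKM in CRLM1-OE against 4.57, 4.24 and 5 FPKM in Ctrl, and HSPA1B measured 289.44, 363.91 and 348.67 FPKM against 117.49, 114.66 and 113.91 FPKM. CRLM1-OE replicate 2 had the lowest HSPA1A and the highest HSPA1B. These neighbouring genes are near-identical copies, and only uniquely mapped reads were counted. Reads that map equally to both are left out, and the sum taken here does not restore them. Summed, they measured 991, 1127 and 1143 CPM in CRLM1-OE against 344, 337 and 338 CPM in Ctrl, a ratio of 3.2, and 335, 329 and 328 CPM in Anti.

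Further chaperone genes rose by less than 2-fold: the HSP110 gene HSPH1 by log2 0.92, the co-chaperone BAG3 by 0.78, CHORDC1 by 0.49, DNAJB1 by 0.41 and HSPA8 by 0.24. HSPD1, the chaperonin of mitochondria, fell by 0.37 on the log2 scale, HSF2 by 0.26, HSF1 by 0.23 and HSP90AA1 by 0.13. In all, 12 of 19 rose and 4 fell, where 15.0% of all genes rose, and 4 were called up (2.50% of all genes): HSPA6, HSPA1A, HSPA1B and CRYAB. Of the 18 members averaging 100 counts or more 11 rose, beside 3420 of all 11716 such genes. The median was 0.17, and 0.31 with the GC trend removed. CRYAB stayed at or below 0.08 FPKM in every CRLM1-OE and Ctrl sample and lost its call in at least 1 alternative.

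The promoter of HSPA6 is shown because that gene had the largest fold change of all well-measured genes after CRLM1. The window is from RefSeq on GRCh38.p14, at chr1:161524446-161524498 on the forward strand, and the capitals are a match to the heat-shock element, searched on both strands as GAA, TTC and GAA with 2 bases of any kind between neighbours. Such a match was found in 7 of the 17 heat-shock genes with a promoter window, and in 0.608% of the 27305 genes with a window of the same length. HSPD1 and HSP90AA1, which fell, hold a match too. A match is a run of letters and not a shown site of binding.
HSPA6: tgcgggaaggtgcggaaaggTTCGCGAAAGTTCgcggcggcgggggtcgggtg

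The sterol regulatory element was searched on both strands as the fixed letters CACCCCAC, with no free position. It was in 0 of 16 sterol enzymes with a window, and the other members of the 21 had no window. It was in 1 of 11 genes of SREBP control and LDL uptake (SREBF2) and in 1 of 18 fatty acid enzymes (ACSL1). Among all genes with a window it was in 3.39%. Absence says only that these letters are not in the window.

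FOS and FOSB led the immediate early genes, which encode transcription factors made within minutes of a growth signal. FOS measured 37.25, 37.89 and 37.86 FPKM in CRLM1-OE against 7.61, 8.71 and 8.06 FPKM in Ctrl. The CRLM1-OE samples were nearly equal, and the fold change was 4.29 (log2 2.10 ± 0.038 SE, adjusted p = 1e-300). FOSB rose 4.99-fold, from 1.16, 1.08 and 1 FPKM to 5.63, 5.85 and 6.1 FPKM. EGR3 rose 2.34-fold and IER5, which can activate heat-shock factor 1, 2.02-fold, while NR4A1 and JUN rose by log2 0.90 and 0.77.

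The list as a whole did not move as one. Of 28 genes, 18 rose and 8 fell, with a median of 0.25, and the falls included FOSL1 (log2 -0.72), BTG2 (-0.62), KLF10 (-0.51), IER3 (-0.41) and MYC (-0.21). Of 20 genes that answer or damp ERK signalling, 7 rose and 5 fell, with a median of 0.01. DUSP2, a nuclear phosphatase of ERK, was the member called, at 21.38, 22.27 and 22.41 FPKM against 5.87, 7.52 and 5.91 FPKM (log2 1.67 ± 0.056 SE, adjusted p = 2.5e-192), and DUSP1 rose by log2 0.71 while PHLDA1 fell by 0.69. DUSP4, DUSP6 and ETV4 and ETV5 did not pass the test.

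ER chaperones and genes of the unfolded protein response fell together, each by less than 2-fold. Of 21 genes 18 fell and 2 rose, and none was called, with a median of -0.59 (-0.44 under total counts and -0.51 with the GC trend removed). Calreticulin, CALR, which folds glycoproteins in the ER, measured 524.08, 526.65 and 518.96 FPKM in CRLM1-OE against 767.13, 773.71 and 772.79 FPKM in Ctrl. Samples within a group were nearly equal and the gap between groups was wide (log2 -0.67 ± 0.018 SE, adjusted p = 1e-300). The disulfide isomerase PDIA4 measured 101.46, 103.36 and 101.73 FPKM against 172.97, 167.07 and 165.06 FPKM (log2 -0.84 ± 0.022 SE).

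XBP1, the transcription factor whose spliced form drives this response, fell from 99.14, 95.18 and 96.43 FPKM in Ctrl to 60.99, 60.1 and 59.39 FPKM (log2 -0.80 ± 0.027 SE, adjusted p = 1e-193). The counts do not tell its spliced and unspliced forms apart. DNAJC3 (log2 -0.93), DNAJB9 (-0.79), HYOU1 (-0.76) and SEL1L (-0.72) fell further than the main chaperone HSPA5, or BiP (-0.36). ERN1, which encodes the IRE1 sensor that splices XBP1, and EDEM1, which sorts misfolded proteins for disposal, were the members that rose, by log2 0.56 and 0.33. Against Anti the median was -0.74, with 19 falling and 2 rising, and the Anti samples lay 0.17 to 0.184 log2 units above Ctrl.

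Promoter windows of 4 members are shown because they share the ER stress element, CCAAT and CCACG with 9 bases of any kind between them, the letters through which ATF6 and XBP1 are known to act. It was found on either strand in 7 of 20 members with a window (CALR, CANX, CRELD2, HSP90B1, HSPA5, PDIA6 and XBP1) and in 0.0916% of all genes with a window. Capitals mark the match. The windows lie on GRCh38.p14 at chr9:125241371-125241429 (reverse strand), chr22:28800583-28800641 (reverse), chr19:12938364-12938422 (forward) and chr2:10812833-10812891 (reverse), in the order printed. All 4 genes fell, by 0.36, 0.80, 0.67 and 0.46 on the log2 scale. Members without a match fell as well, since 18 of the 21 genes of the list fell. A match is a run of letters and not a shown site of binding.
HSPA5: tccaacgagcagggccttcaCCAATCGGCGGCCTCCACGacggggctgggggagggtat
XBP1: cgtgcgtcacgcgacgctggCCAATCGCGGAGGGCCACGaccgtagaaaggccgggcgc
CALR: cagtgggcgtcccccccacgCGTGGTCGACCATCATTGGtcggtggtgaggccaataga
PDIA6: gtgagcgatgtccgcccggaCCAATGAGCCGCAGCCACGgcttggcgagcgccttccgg

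Genes of the ATF4 amino acid response fell as well, with 1 clear exception. Of 25 genes 19 fell and 5 rose, with 3 called down and 1 called up, and the median was -0.32. Over all genes 16.8% fell, 0.915% were called down and 2.50% were called up. Of the 24 members averaging 100 counts or more 18 fell, beside 4542 of all 11716 such genes. SLC7A11, the cystine importer that feeds glutathione synthesis, measured 1.71, 1.6 and 1.69 FPKM in CRLM1-OE against 5.09, 4.79 and 4.8 FPKM in Ctrl. It was lower in every CRLM1-OE sample by about the same amount (log2 -1.67 ± 0.048 SE, adjusted p = 1.8e-257), and its partner subunit SLC3A2 fell by 0.69. ATF5 measured 2.2, 2.05 and 2.18 FPKM against 5.5, 5.72 and 5.61 FPKM (log2 -1.5 ± 0.081 SE). NUPR1, at 0.18 FPKM or less in these samples, was the third gene called down.

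ATF4 itself fell by 0.43 on the log2 scale, and with it the serine and one-carbon enzymes MTHFD2 (-0.72), PHGDH (-0.61), PSAT1 (-0.57) and SHMT2 (-0.42), asparagine synthetase ASNS (-0.32) and STC2 (-0.87). PPP1R15A, or GADD34, which restores translation by directing a phosphatase to eIF2-alpha, went the other way. It measured 291.36, 294.95 and 289.27 FPKM in CRLM1-OE against 111.61, 110.61 and 109.47 FPKM in Ctrl (log2 1.29 ± 0.022 SE, adjusted p = 1e-300), and it was one of the 3 called genes with a mean count above 10000. SESN2 and CTH rose by log2 0.37 and 0.32.

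HMOX1 and the ferritin light chain rose while other members of the NRF2 list fell more often than they rose. HMOX1, which breaks down heme, measured 64.36, 65.27 and 63.11 FPKM in CRLM1-OE against 19.57, 19.75 and 19.63 FPKM in Ctrl. The replicates were nearly equal within each group (log2 1.59 ± 0.035 SE, adjusted p = 1e-300). The ferritin light chain FTL had the largest gain in amount of any gene, from 3988.52, 4055.22 and 4102.47 FPKM in Ctrl to 5951.78, 6005.66 and 5964.55 FPKM (log2 0.45 ± 0.014 SE), whereas the heavy chain FTH1 fell by 0.41. BLVRB, GCLM and SRXN1 rose by log2 0.25, 0.58 and 0.45.

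NFE2L2, which encodes NRF2, fell by 0.61 on the log2 scale, KEAP1 by 0.66, TXNRD1 by 0.53 and NQO1 by 0.36. Over the 30 genes 6 rose and 16 fell, and the median of -0.11 turned to 0.03 under total counts, so that no direction is given for the list. Metallothioneins and the zinc response had a median of -0.14, which came to 0 under total counts, with 2 of 6 genes rising and 3 falling. MT1E fell by 0.64 on the log2 scale and MT1X by 0.39.

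Interferon-stimulated genes, which are switched on by interferon signalling and act against viruses, fell on balance. Of 40 genes 20 fell, 8 rose and 6 were called down (0.915% of all genes were), with a median of -0.54 that was -0.3 without Ctrl replicate 1. OASL, a sensor-linked antiviral protein, measured 3.04, 3.11 and 3.62 FPKM in CRLM1-OE, in Ctrl 8.37, 9.21 and 8.18 FPKM, and 20.56, 19.12 and 19.42 FPKM in Anti. The 3 groups were fully apart with Anti highest, and CRLM1-OE over Ctrl gave log2 -1.51 ± 0.06 SE (adjusted p = 3.5e-137). The IFIT genes, which bind foreign RNA, were at 0.32 to 0.85 FPKM in CRLM1-OE against 0.65 to 1.81 FPKM in Ctrl, with IFIT2 at log2 -1.36, IFIT3 at -1.19 and IFIT1 at -1.02. IFIT1 was no longer called without CRLM1-OE replicate 1, Ctrl replicate 1 or Ctrl replicate 3 (log2 -0.97 to -0.87).

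IFITM1 (log2 -1.67) and DTX3L (-1.20) were the other members called. The RNA sensors DDX58 and IFIH1 fell by 0.93 and 0.89 and IRF1 by 0.62. STAT2 rose by log2 0.78 and IFI6 by 0.70, and ISG15 rose from 274.99, 284.3 and 296.43 FPKM to 351.34, 348.7 and 347.1 FPKM (log2 0.18). Against Anti the median was -0.86, and in Anti the list lay 0.337 to 0.378 log2 units above Ctrl.

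IFIT1 and IFIT3 windows are shown because both genes were called down and hold the interferon-stimulated response element. Members that rose, among them IFI6 and ISG15, hold it too, so a match did not go with a single direction. This element was searched on both strands as a pair of GAAA runs with 2 bases of any kind between them. It was in 21 of 30 members with a window and in 4.38% of all genes with a window. Matches are in capitals, and both windows (the IFIT3 one from 1 of its 2 listed starts) are on the forward strand of GRCh38.p14, at chr10:89392487-89392549 and chr10:89327821-89327904.
IFIT1: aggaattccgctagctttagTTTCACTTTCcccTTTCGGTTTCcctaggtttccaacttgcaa
IFIT3: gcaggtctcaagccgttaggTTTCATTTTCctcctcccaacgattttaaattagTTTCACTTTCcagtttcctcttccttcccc

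Chemokines, cytokines and NF-kB feedback genes fell too. Of 34 genes 23 fell, 2 rose and 8 were called down, with a median of -0.55, where 16.8% of all genes fell and 0.915% were called down. Of the 22 members averaging 100 counts or more 18 fell, beside 4542 of all 11716 such genes. NFKBIA, the inhibitor that NF-kB itself induces, measured 44.18, 41.83 and 42.56 FPKM in CRLM1-OE against 84.14, 85.38 and 83.45 FPKM in Ctrl. Every CRLM1-OE sample lay below every Ctrl sample by about the same amount (log2 -1.09 ± 0.029 SE, adjusted p = 1e-300). CXCL1, which attracts neutrophils, measured 9.19, 8.52 and 8.51 FPKM against 18.54, 18.38 and 18.79 FPKM (log2 -1.20 ± 0.066 SE).

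BIRC3, an inhibitor of cell death downstream of TNF, fell by 1.06 on the log2 scale, CXCL2 by 1.12 (0.96 without Ctrl replicate 2), TNFAIP2 by 0.80, NFKB1 by 0.76, ICAM1 by 0.75 and CXCL8 by 0.63. TNF, CCL28, CCL20 and CCL5 were called down at levels of 0.61 FPKM or less in these samples, with CCL5 overlapping between groups in FPKM and CCL20 no longer called without CRLM1-OE replicate 2. The 2 genes that rose were NFKBIZ (log2 0.54) and NFKB2 (0.08). Against Anti the median was -1, with 24 falling and 2 rising. MHC class I presentation genes had small changes, and 11 of 18 genes fell and 2 rose, with a median of -0.15 that came to -0.01 under total counts. ERAP1, which trims peptides in the ER, fell by 0.87 on the log2 scale and TAPBP by 0.35, while HLA-E and B2M did not pass the test.

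**Figure D4:**
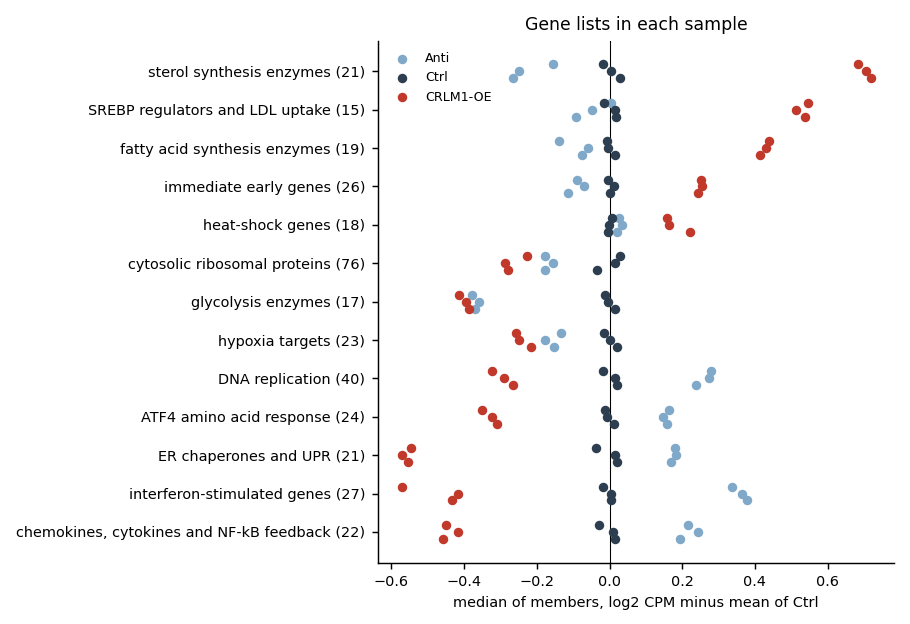
Median over the members of each list that average 100 counts or more (number in parentheses) of log2 CPM minus the Ctrl mean (horizontal axis), 1 point per sample. The sterol list lies at 0.684 to 0.719 in CRLM1-OE, the ER list at -0.572 to -0.545, and for glycolysis the CRLM1-OE and Anti samples lie together below Ctrl.

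Glycolysis enzymes fell against Ctrl and not against Anti. Of 17 enzymes 13 fell and 2 rose, none was called and the median was -0.40. GPI measured 168.13, 164.63 and 160.8 FPKM in CRLM1-OE, in Ctrl 274.55, 269.86 and 269.21 FPKM, and 168.72, 166.21 and 166.57 FPKM in Anti. The CRLM1-OE and Anti samples overlapped and both lay below Ctrl (log2 -0.84 ± 0.019 SE against Ctrl and -0.07 against Anti). ALDOA fell by 0.62 on the log2 scale, LDHA by 0.66, ENO1 by 0.50 and GAPDH by 0.41, and HK2 rose by log2 0.46. The list's median against Anti was -0.01, with 8 rising and 6 falling. In each sample it lay at -0.413 to -0.386 in CRLM1-OE and at -0.378 to -0.358 in Anti.

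Hypoxia targets showed the same split in their middle but not at their ends. Of 24 genes 13 fell and 4 rose, with a median of -0.26 against Ctrl and 0.04 against Anti. CA9 and EGLN3, an oxygen-sensing hydroxylase, were called down, and both were also lower than in Anti (log2 -1.74 and -0.91). EGLN3 measured 2.23, 2.21 and 2.27 FPKM in CRLM1-OE against 4, 4.41 and 4.24 FPKM in Ctrl, and it was no longer called without Ctrl replicate 2 (log2 -0.98). P4HA1 fell by 0.83 on the log2 scale, the glucose transporter SLC2A1 by 0.62 and NDRG1 by 0.42, NDRG1 being higher than in Anti by log2 0.44. VEGFA did not pass the test (log2 -0.01).

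DNA replication genes fell modestly and mitotic genes had no common direction. Of 42 replication genes 29 fell and 3 rose, with a median of -0.33 (-0.54 against Anti). POLA1, the catalytic subunit of DNA polymerase alpha, was the member called, at 0.26, 0.33 and 0.29 FPKM in CRLM1-OE against 0.67, 0.59 and 0.55 FPKM in Ctrl (log2 -1.18 ± 0.15 SE, adjusted p = 4.8e-14). The groups did not overlap, though the level was low. The transcription factor E2F1 fell by 0.90 on the log2 scale, the helicase subunits MCM4 and MCM3 by 0.88 and 0.64, while UHRF1, GINS3 and RPA2 rose.

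Over 38 mitotic genes 13 fell and 6 rose, and the median of -0.07 turned to 0.07 under total counts. CDC20, an activator of the anaphase-promoting complex, rose from 56.13, 58.71 and 57.23 FPKM to 104.98, 103.07 and 101.48 FPKM (log2 0.73 ± 0.028 SE), and UBE2C, an enzyme of the same complex's reaction, fell by 0.59. MKI67 fell by 0.45. Of 49 histone genes 8 rose and 2 fell, with a median of 0.29 (0.17 without CRLM1-OE replicate 1), and only 5 genes averaged 100 counts or more. HIST1H2BB was the histone gene called up, at 1.04, 1.12 and 1.06 FPKM against 0.36, 0.44 and 0.63 FPKM, and not without Ctrl replicate 1 (log2 0.89).

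Among 28 apoptosis regulators 9 rose and 13 fell, with a median of -0.06 that turned to 0.08 under total counts. BIRC3 was called down and BMF, a BH3-only protein at 0.35, 0.28 and 0.34 FPKM against 0.15, 0.11 and 0.13 FPKM, was called up. The BH3-only gene BIK and the BAX relative BOK fell by 0.64 and 0.71, and APAF1 rose by log2 0.64.

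Genes tied to the epithelial-to-mesenchymal transition rose at low levels, together with some genes that oppose it. Of 17 genes 13 rose and 2 fell, with a median of 0.51. Vimentin, VIM, a mesenchymal filament protein, was called up at 0.94, 1.29 and 1.28 FPKM against 0.35, 0.63 and 0.57 FPKM (log2 1.08 ± 0.18 SE, adjusted p = 1.1e-08). Without Ctrl replicate 1 its log2 fold change was 0.84 and no gene of the list was called. The groups did not overlap, but the level stayed near 1 FPKM, beside 21.4 FPKM for the epithelial cadherin CDH1, which did not pass the test (log2 -0.05). The repressors SNAI1 and SNAI2 rose by log2 0.61 and 0.68 and fibronectin FN1 by 0.66, whereas the epithelial factors GRHL2 and OVOL1 rose too, by 0.33 and 0.36, and ESRP1 and EPCAM fell by 0.47 and 0.35.

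Keratins and junction proteins moved one by one. Over 28 genes 6 rose and 12 fell, and the median of -0.07 turned to 0.07 under total counts. KRT7 measured 68.97, 72.58 and 68.66 FPKM in CRLM1-OE against 132.98, 131.18 and 135.8 FPKM in Ctrl and was called down. KRT18 measured 426.23, 428.43 and 424.29 FPKM against 789.87, 777.31 and 788.92 FPKM, a log2 fold change of -1 that lay just inside 2-fold (fold change 0.501) and so was not called. The tight junction gene CLDN4 rose from 78.58, 78.42 and 80.7 FPKM to 162.69, 162.9 and 160.25 FPKM (log2 0.92 ± 0.021 SE), and CLDN3 fell by 0.66. Of 19 genes of intestinal identity 4 rose and 3 fell, with no stable sign of the median (-0.11, and 0.03 under total counts).

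Adhesion and matrix lists held called genes in both directions. The collagens COL7A1 and COL13A1 rose by log2 1.6 and 1.13, and COL17A1, a hemidesmosome collagen, fell by 1.24 (1.16, 1.15 and 1.07 FPKM against 2.53, 2.39 and 2.43 FPKM). Over 31 laminins and collagens 9 rose and 8 fell, with a median of 0.14 (0.09 without CRLM1-OE replicate 2). ITGB4, the integrin partner of COL17A1 in hemidesmosomes, fell by 0.92 on the log2 scale, and over 26 integrins 7 rose and 5 fell (median 0.16). The 3 integrins called, ITGAL, ITGB3 and ITGA11, stayed at or below 0.1 FPKM in all 6 samples, with ITGB3 not fully apart between groups. Without CRLM1-OE replicate 3 or Ctrl replicate 1 no integrin was called, without CRLM1-OE replicate 1 or Ctrl replicate 2 only 1 was, and the median was 0.07 without CRLM1-OE replicate 3 and 0.1 without CRLM1-OE replicate 1.

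Among 31 matrix proteases and inhibitors 12 rose and 8 fell, with a median of 0.16 that was 0.02 without CRLM1-OE replicate 3, 0.1 without Ctrl replicate 1 and 0.3 without Ctrl replicate 3. MMP7 was called down (0.87, 0.54 and 0.75 FPKM against 1.36, 1.81 and 1.26 FPKM) and ADAMTS13 up (1.12, 1.02 and 1.06 FPKM against 0.51, 0.53 and 0.38 FPKM), as were ADAM8 and ADAMTS15 at levels under 0.5 FPKM. MMP7 was no longer called without CRLM1-OE replicate 2 (log2 -0.96) or Ctrl replicate 2 (-0.95), nor ADAMTS13 without Ctrl replicate 3 (0.94). The urokinase gene PLAU and its receptor PLAUR fell by 0.73 and 0.68 on the log2 scale, while the inhibitors TIMP3 and TIMP2 rose by log2 0.82 and 0.75.

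Axon guidance ligands and receptors, which also steer the movement of other cells, rose more often than they fell. Of 60 genes 28 rose, 7 fell and 7 were called up, where 15.0% of all genes rose and 2.50% were called up. The median was 0.29, and 0.23 with the GC trend removed. Of the 39 members averaging 100 counts or more 22 rose and 6 fell, beside 3420 and 4542 of all 11716 such genes. In the 3 CRLM1-OE samples the median of those 39 lay 0.3, 0.149 and 0.198 log2 units above the Ctrl mean. Among those 39 SEMA7A and PLXNA2 were called up, where 169 of all 11716 genes at that level were. The other members called average fewer counts, and genes with a mean count of 10 to 100 were called in 11.8% of cases, either direction. The count called is not read here as a result about these genes. SEMA7A, a membrane-anchored semaphorin that binds integrins, was the abundant one among them, at 50.89, 50.86 and 50.26 FPKM in CRLM1-OE against 20.82, 20.32 and 20.19 FPKM in Ctrl (log2 1.19 ± 0.028 SE, adjusted p = 1e-300). Each CRLM1-OE sample was more than 2-fold above each Ctrl sample. The other 6 called (SLIT1, EFNA5, SEMA4A, PLXNA2, NRP2 and EPHA8) stayed under 1 FPKM. NRP1 fell by 0.96 on the log2 scale and NRP2 rose by log2 1.02, under 2-fold without CRLM1-OE replicate 1 (0.94) or Ctrl replicate 1 (0.96).

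Signalling lists held few called genes. Among 39 genes of TGF-beta and BMP signalling 12 rose and 12 fell, with a median of 0.09, and those called, INHBB (up) and TGFB2 (down, with groups not fully apart), were at or below 0.21 FPKM and each lost its call without at least 1 library (INHBB without CRLM1-OE replicate 1 or Ctrl replicate 1, TGFB2 without CRLM1-OE replicate 2 or 3 or Ctrl replicate 1). The median was 0.05 without CRLM1-OE replicate 3 and 0.03 without Ctrl replicate 2; BMP4 rose by log2 0.70. AXIN2, a feedback target of Wnt signalling, was called up (0.95, 0.93 and 0.84 FPKM against 0.38, 0.33 and 0.38 FPKM), NKD1 rose by log2 0.87 and the Wnt inhibitor DKK1 fell by 0.74, with 6 of 16 Wnt targets rising, 4 falling and a median of 0.08. Of 17 YAP and TEAD genes 8 rose and 5 fell, with a median of 0.28, among them AMOTL2 (log2 0.80), CTGF (0.74) and LATS2 (0.71) rising and AXL (-0.67) and F3 (-0.64) falling. Over 16 ERBB receptors and ligands 4 rose and 4 fell, with a median of 0; EGFR fell by 0.43 on the log2 scale and its ligand EREG by 0.83.

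**Figure D5:**
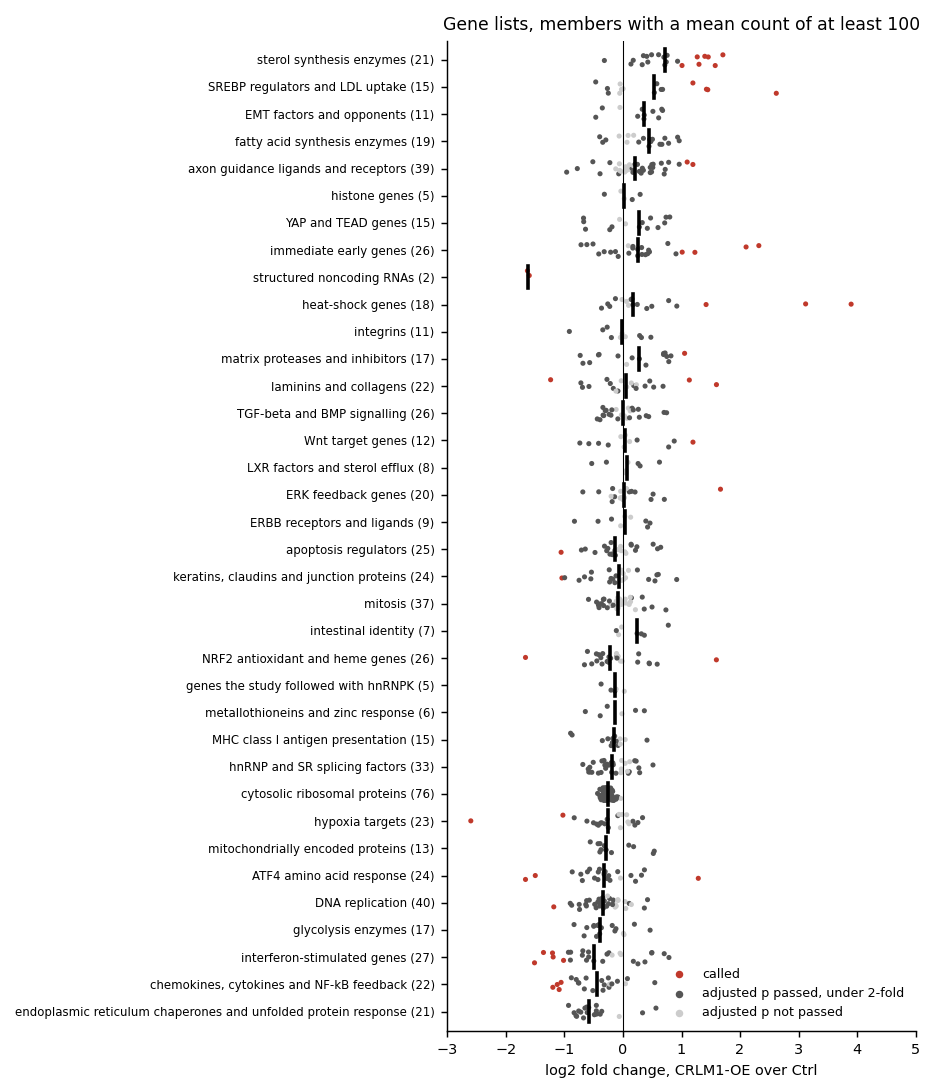
Log2 fold change of CRLM1-OE over Ctrl (horizontal axis) for each list member averaging 100 counts or more (number in parentheses), with called genes in red, genes passing the adjusted p alone in dark grey and the others in light grey. Black bars are medians over the members drawn, and the lists are ordered by the median over all their tested members, from sterol enzymes at 0.71 to ER genes at -0.59.

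Ribosomal protein genes fell by a small and even amount. Of 80 genes 75 fell and none rose, with a median of -0.25, which was -0.11 under total counts and -0.07 against Anti. RPS14 measured 884.3, 881.1 and 919.77 FPKM in CRLM1-OE against 1134.97, 1078.15 and 1137.97 FPKM in Ctrl (log2 -0.43 ± 0.017 SE). RPS2, the gene of this list with the largest loss in amount, measured 8462.25, 8443.27 and 8020.36 FPKM against 9126.59, 9315.19 and 9231.32 FPKM. As a group these genes took 22.3% to 22.6% of all FPKM in CRLM1-OE against 23.6% to 24.1% in Ctrl. The elongation factor EEF1A1 fell alongside by 0.37 on the log2 scale.

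Mitochondrially encoded genes took 12.3% to 12.4% of all FPKM in CRLM1-OE against 13.8% to 14% in Ctrl. Of 13 protein genes 9 fell and 4 rose, with a median of -0.30. MT-CO1, a core subunit of cytochrome c oxidase, measured 8520.54, 8722.61 and 8560.25 FPKM against 10539.35, 10263.98 and 10127.3 FPKM (log2 -0.38 ± 0.011 SE). The 4 that rose were complex I subunits: MT-ND1, from 618.8, 622.55 and 622.67 FPKM to 951.78, 967.57 and 971.68 FPKM (log2 0.52 ± 0.02 SE), MT-ND6 (0.53), MT-ND5 (0.18) and MT-ND2 (0.10). Members of this list thus went in opposite directions. The ribosomal RNA MT-RNR2 fell by 0.52 on the log2 scale and MT-ATP8 by 0.56.

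Noncoding RNAs held some of the largest changes. The signal recognition particle RNAs RN7SL1, RN7SL2 and the entry Metazoa_SRP are near-copies of each other and were summed, at 183, 127 and 196 CPM in CRLM1-OE and 357, 485 and 573 CPM in Ctrl, a ratio of 0.357. Reads that map equally to more than 1 of them are left out of such counts. The samples of a group were far from equal, yet the groups did not overlap. These RNAs form the core of the particle that brings secreted proteins to the ER, and the Anti samples lay at 461, 474 and 405 CPM, within the Ctrl range. LUCAT1, a stress-responsive long noncoding RNA, measured 0.92, 0.98 and 1.02 FPKM against 2.92, 2.88 and 2.56 FPKM (log2 -1.63 ± 0.11 SE, adjusted p = 2.7e-50). FER1L4 (log2 1.71), RP11-517C16.2 (1.59) and ANKRD19P (1.5) rose and AADACP1 fell by 1.27.

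Long intergenic RNAs were called up 88 times and down 32 times of 3275 (3.66%), and antisense genes 88 and 18 times of 3525 (3.01%). Protein-coding genes were called up 434 and down 166 times of 16863 (3.56%). These shares lie near the 3.41% of all genes, so the counts are no result about noncoding genes. Small nucleolar RNAs were called up 21 times of 251 (8.37%) and never down by edgeR. Only 2 of them averaged 100 counts or more, and neither was called. Of the 14 structured noncoding RNAs 6 fell and none rose, while the median of 0.18 came to -0.73 once low counts were filtered (filterByExpr).

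The genes that the study followed together with hnRNPK changed little here. HNRNPK itself measured 151.84, 154.87 and 149.64 FPKM in CRLM1-OE against 186.39, 182.55 and 177.22 FPKM in Ctrl, a small fall without overlap (log2 -0.37 ± 0.021 SE, adjusted p = 5.3e-69). BBC3, or PUMA, an activator of cell death, measured 52.85, 53.78 and 52.38 FPKM against 55.62, 50.32 and 55.62 FPKM. The groups overlapped, and the log2 fold change of -0.14 (adjusted p = 1.3e-05) came to 0 under total counts (adjusted p = 0.97). SMURF2, which marks TGF-beta receptors for degradation, measured 77.87, 77.26 and 75.19 FPKM against 82.27, 82.54 and 80.38 FPKM (log2 -0.20 ± 0.024 SE, adjusted p = 7e-16). Across the alternatives its log2 fold change ran from -0.21 to -0.06, and it did not pass the adjusted p in at least 1 of them.

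SMAD6 (on average 0.977 and 0.897 FPKM) and BMP7 (4.49 and 4.5 FPKM) overlapped between groups and did not pass the test, with adjusted p values of 0.93 and 0.13. Of these 5 genes 3 fell and none rose, and their median of -0.14 came to 0 under total counts. Among 33 hnRNP and SR splicing factors 20 fell and 7 rose, with a median of -0.19 (-0.05 under total counts); SRSF3 fell by 0.69 on the log2 scale and HNRNPA1 by 0.51.

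By amount rather than fold, the 8 largest gains included FTL, CRLM1, MT-ND1, ACTB, HSPA1B, MT-ND5 and PPP1R15A, and the 8 largest losses MT-ATP8, MT-RNR2, MT-CO2, MT-CO1, RPS2, EEF1A1, RPS18 and MT-ATP6. ACTB rose from 1910.34, 1890.45 and 1883.45 FPKM to 2248.13, 2260.55 and 2181.19 FPKM, of which log2 0.12 ± 0.015 SE remained on the TMM scale.

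The cells matched the label of an epithelial line in part. The 8 epithelial markers summed to 4988 to 5121 FPKM in CRLM1-OE against 5642 to 5690 FPKM in Ctrl, led by KRT19 at 3235 FPKM in Ctrl, while CDX1 and LGALS4 were near 0 in every sample. The fibroblast markers summed to 2.07 to 2.51 FPKM in CRLM1-OE against 1.19 to 1.28 FPKM in Ctrl, nearly all of it COL1A1, which rose by log2 0.75. The immune markers summed to 1.96 to 2.2 and 1.78 to 1.89 FPKM, mostly CD68, and the endothelial markers to 0.07 to 0.14 and 0.05 to 0.06 FPKM.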

How the data were processed

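RNA of HCT116 cells was sequenced by the authors in 3 groups of 3 samples. Reads were trimmed, aligned to GRCh38 with Gencode annotation by TopHat2, and uniquely mapped reads were counted per gene. The deposited counts are not normalized. The deposited FPKM values are scaled by the authors for exon length and mapped fragments. Strand use is not given in the sources used here.

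The quasi-likelihood test of edgeR 4.0.16 (R 4.3.3; glmQLFit, glmQLFTest, TMM scaling, no covariate) was applied to the counts of CRLM1-OE and Ctrl, and in the same way with Anti. Genes with at least 1 count in the 6 samples were tested, with Benjamini-Hochberg adjustment over all of them, and called when they differed 2-fold or more with an adjusted p of 0.05 or less. SE is the absolute log2 fold change over the square root of F. The fit set the spread of each gene wholly by the trend over genes of similar abundance. SE and p therefore do not carry the spread of that gene's own replicates. Adjusted p values below 1e-300 are written as 1e-300. Alternatives used RLE factors, total counts, filters, DESeq2 1.42.0, limma 3.58.1, all 9 samples, a replicate block and omitted samples. The edgeR test was first run on simulated counts with known changes.

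The comparison and the gene lists were chosen with earlier results of these data known. Named genes are CRLM1, the 12 leading genes each way, the 8 each way by FPKM difference, up to 6 called members of each list (or the 2 with the smallest adjusted p), 5 genes of the study and 5 noncoding genes each way. Other list members were picked after their values were seen. Some genes and 1 list are not reported here. Motifs were searched on both strands of RefSeq promoter windows, and a gene was counted when any of its windows held a match. Python 3.11.15 with matplotlib 3.10.9 drew the figures.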

Additional observations from a re-analysis of the deposited data

Results flagged for a closer look

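One value from samples outside the comparison with Ctrl stood above the controls. CRLM1 had a mean of 75.4 FPKM in Anti, where Ctrl had 0 counts in all 3 samples. The Anti cells carried the antisense sequence of CRLM1, and use of strand in counting is not given in the sources used here. Groups of 3 samples were not tested for a sample far from the others.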

How the results depend on the processing

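Against 745 genes up and 273 down, at least 10 counts in every sample left 352 and 117, a filter on low counts (filterByExpr) 598 and 183, DESeq2 535 and 164, limma on log2(FPKM + 0.1) 495 and 80 and on log2(FPKM + 1) 81 and 17, and the adjusted p alone 4462 and 5016. A pseudocount shrinks the fold change of genes with low FPKM. Total counts gave 1101 and 187, RLE factors 767 and 270, and all 9 samples 736 and 294. Chosen after seeing the data, bias adjustment together with robust dispersions gave 812 and 311 and removal of the GC trend 768 and 262. Leaving out 1 sample gave 665 to 741 up and 231 to 259 down. The replicate block gave 653 and 212; same-numbered samples deviated together only weakly (correlations of 0.020, 0.0078 and 0.067), so no pairing was assumed. The 24 leading genes, CRLM1 included, differed from Anti under all alternatives run for that count.

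Some signs changed. Under total counts the medians of the NRF2, intestinal identity and hnRNPK lists came to 0.03, 0.03 and 0, BBC3 to 0 and BMP7 to 0.02. Under limma the NRF2 and intestinal medians were 0 with either pseudocount, and the intestinal one was also 0 with at least 10 counts in every sample. The median of structured noncoding RNAs was -0.73 with filterByExpr, -0.78 with at least 10 counts, and from -0.13 (without CRLM1-OE replicate 1) and -0.12 (without Ctrl replicate 3) to 0.35 (without CRLM1-OE replicate 3). SMAD6 gave -0.04 with the GC trend removed, and from -0.12 (without CRLM1-OE replicate 1) and -0.03 (without Ctrl replicate 2) to 0.13 (without CRLM1-OE replicate 2). Of 125 named genes 107 stayed on the same side of the adjusted p in every alternative, 16 no longer passed it in at least 1, and 3 changed sign. The causes were not tested.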

Other observations

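Median changes differed slightly by chromosome. Among genes averaging 100 counts or more, the median log2 fold change ran from -0.096 on chromosome 13 to 0.036 on chromosome 22, and with the GC trend removed these medians were -0.001 and 0.006. The mitochondrial genome stood apart at -0.292, and at -0.202 with the trend removed. The GC relation was present in each pair of 1 CRLM1-OE and 1 Ctrl sample (Spearman 0.18 to 0.26, across genes) and near 0 between CRLM1-OE samples (-0.018 to 0.0068), while Ctrl replicate 3 differed from Ctrl replicates 1 and 2 by -0.22 and -0.19.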
